A study of Mus musculus with 6 samples.

Results

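The transcripts described here were at or near silence in wild-type NIH3T3 cells and were measured in each library labelled NgBR overexpression. They were chosen from these same libraries. A gene was taken where its mean over the wild-type libraries was under 1 CPM, which is 1 count per 1000000 counts of the library. Each labelled library also had to reach 1 CPM and at least 4 times that mean. Of 35275 genes, 89 met these limits, and 19 of them, Hox genes and other genes left out by name, were set aside, which left 70. Because the difference between the groups chose the 70, their levels are given as a description and with no test. The mirror limits, with the groups exchanged and no names left out, were met by 70 genes, a count to be set beside the 89.

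NIH3T3 is an immortalized line of mouse embryonic fibroblasts, and 6 RNA-seq libraries of it were compared, 3 of wild-type cells and 3 whose genotype label is NgBR overexpression. The gene Nus1 encodes this protein, a receptor of Nogo-B and a subunit of the enzyme of dolichol synthesis. Per the labels' protocols, the second line was made with a pIRES plasmid carrying NgBR with an HA tag and G418 selection, and both lines grew in medium with 10% calf serum. The labels name no vector control, no species of the NgBR sequence, no promoter, and neither a clone nor a pool, and they do not say whether the replicates were separate cultures.

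The 3 wild-type libraries held Nus1 at 209, 188 and 240 CPM and the labelled ones at 177, 181 and 172 CPM. The labelled libraries were thus not higher (212 ± 26.6 against 177 ± 4.61 CPM, mean ± SD, n = 3 each; edgeR log2 difference -0.24 with SE 0.21, adjusted p = 0.786), and they are called by their label throughout. Depth ran with the groups, from 29515072 to 35511769 counts in wild type and from 7369961 to 10358381 in the labelled libraries, a 3.50-fold difference in the means. At these depths 1 CPM stood for 29.5 to 35.5 counts in wild type and for 7.37 to 10.4 counts in the labelled libraries. All 20 fibroblast markers examined had counts in both groups, although Lum was nearly absent from the labelled libraries. The summed level of the 20 markers was between 28387 and 31437 CPM in wild type and between 27332 and 38395 CPM in the labelled libraries. Fn1 and Col1a2 gave the most to it. Of these markers edgeR called Fap higher and Lum lower.

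Most genes of a cell type that are not part of its program are kept off by chromatin and by the lack of their activators, and a low residue of reads is common at such genes. Promoters rich in CpG dinucleotides are usual at genes used by every cell and at many developmental regulators, and CpG-poor promoters are usual at tissue-restricted genes. Processed pseudogenes are intronless genomic copies of an mRNA, made by reverse transcription, and their sequences can be so close to the parent gene that short reads fit both.

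Summed over the 70 genes, the level was 23.5, 25.9 and 25.2 CPM in wild type and 371, 291 and 336 CPM in the labelled libraries. The means were 24.9 ± 1.22 and 333 ± 39.7 CPM (SD, n = 3). Gene by gene the levels were low. The median of the gene means was 0.322 CPM in wild type and 3.69 CPM in the labelled libraries, where the means ran from 1.17 to 15.2 CPM. The ratio of the means had a median of 13.9 and ran from 5.01 to 636, and it was at least 10 for 47 genes and at least 20 for 19. In bulk RNA, more cells that carry a transcript and more RNA of it per cell cannot be told apart.

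Counts behind the wild-type levels were few. Over the 3 wild-type libraries together the genes had between 1 and 92 counts, and 35 of them had fewer than 30. Each of 9 genes had 0 counts in at least 1 wild-type library, and 0 genes had 0 counts in all 3. In the labelled libraries together the totals were between 32 and 422 counts. A count of 0 allows up to 0.0845, 0.102 and 0.0932 CPM in wild-type libraries 1 to 3, taken as 3 counts, and this limit covers counting error only. Each of 5 genes, Bnc1, Clstn3, Akr1e1, Tlr1 and Fetub, had a wild-type library at 1 CPM or more although its wild-type mean was lower.

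All 70 passed the filter on low counts, which their level in the labelled libraries secures. edgeR called 68 of them higher and 0 lower at an adjusted p under 0.05, beside 3.39% called among the 12651 genes tested, 2.04% higher and 1.35% lower. Since the same contrast chose the genes, nothing is read from that count. The 2 others, Gm5446 and Cacna1i, met the limits without a call. The limits themselves were met by 0.252% of all rows and the mirror limits by 0.198%.

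The edge of the set was not a gap. The genes nearest each limit are given here, with those left out by name not considered. Nearest inside the wild-type limit were Bnc1, Clstn3 and Gm10705, with wild-type means of 0.930, 0.909 and 0.893 CPM. Nearest outside it were H3f3a-ps2, Gm6900 and Ceacam1, at 1.005, 1.09 and 1.18 CPM. At the minimum for the labelled libraries, Wnt11, Gm10254 and Mpped2 had a lowest library of 1.06 CPM each, and Ppfibp2, Acap1 and Sp9 missed it at 0.992, 0.992 and 0.965 CPM. For the fold limit, the lowest labelled library was 4.03, 4.22 and 4.26 times the wild-type mean for Cacna1i, Akr1e1 and Tlr1, and 3.99, 3.77 and 3.74 times for Usp17la, Tfec and Slc22a4 just outside.

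By gene class, 51 of the 70 were protein-coding (72.9%) and 15 were processed pseudogenes (21.4%). Of the remaining 4, AI662270 and Gm12602 are processed transcripts, Gm11427 is a transcribed unprocessed pseudogene, and Tes3-ps has no entry in the annotation used. Gm12602 was at 0.310, 0.610 and 0.217 CPM in wild type and at 3.26, 2.41 and 2.98 CPM in the labelled libraries, and Tes3-ps at 0.197, 0.373 and 0.217 CPM and at 4.34, 2.22 and 2.78 CPM. Among all tested genes processed pseudogenes made up 2.43%, and among the 995 tested genes with a wild-type mean under 1 CPM they made up 11.96%. The limits were applied to all rows, of which 14.1% are processed pseudogenes, and among the 9366 rows with any count and a wild-type mean under 1 CPM they are 16.5%. The summed level of the coding genes was 16.4, 17.6 and 17.8 CPM in wild type and 217, 221 and 218 CPM in the labelled libraries. That of the pseudogenes was 5.77, 6.64 and 6.27 CPM in wild type and 136, 59.8 and 104 CPM in the labelled libraries. The labelled libraries were thus close to each other for the coding sum (219 ± 2.09 CPM, n = 3) and far apart for the pseudogene sum (99.9 ± 38.2 CPM, n = 3).

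**Figure D1:**
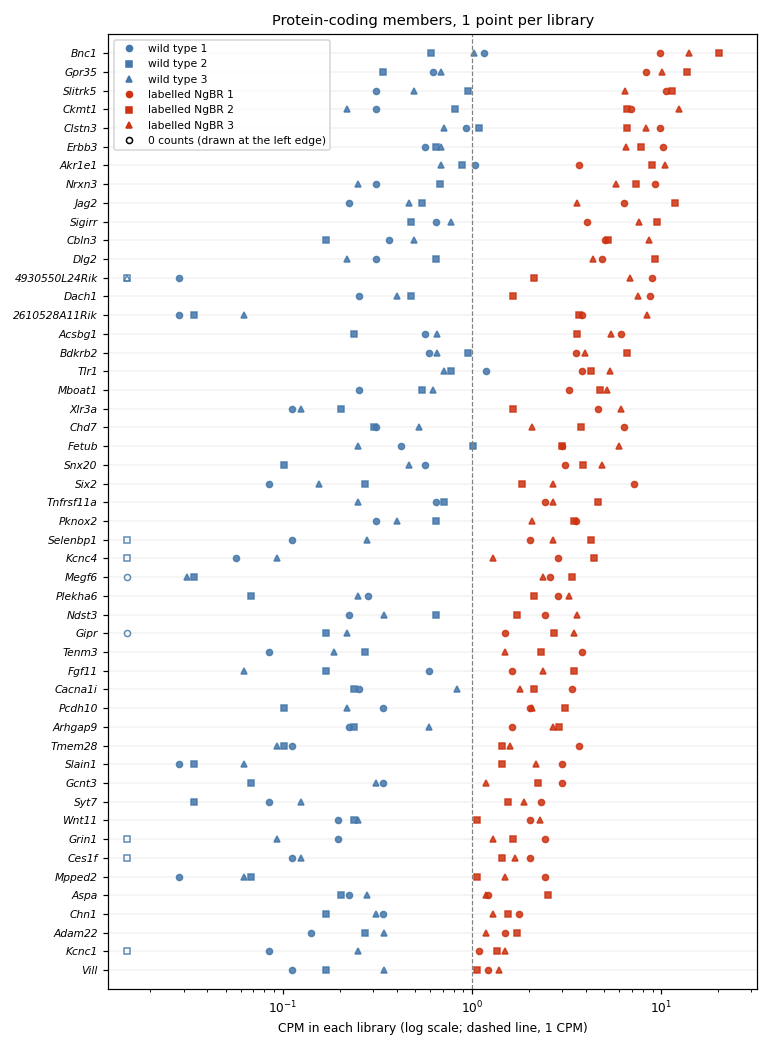
Level of 50 of the 51 protein-coding genes in each of the 6 libraries, in CPM on a log scale, with 1 point per library, 1 symbol per replicate number and a dashed line at 1 CPM. Wild-type points lie at or below 1.18 CPM and labelled points at or above 1.06 CPM, as the limits require, and open symbols at the left edge are libraries with 0 counts.

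The promoters of the coding genes ranged widely in CpG content. RefSeq promoter windows of the build GRCm38.p6, from 250 bases before to 50 bases after a transcription start, were matched by symbol for 40 of the 51. Those with no window included Arhgap9, Ces1f, Chd7, Erbb3, Gcnt3, Gipr, Pknox2, Sigirr, Snx20 and Syt7. The table holds 1 window per gene, and its start can differ from the outermost start of the gene. Windows of 4 genes are printed 5′ to 3′ on the gene's strand, with every CG dinucleotide in capitals, to show the range from the richest to the poorest. They are those of Jag2 (chr12:112929446-112929745, minus strand, 63 CG), Megf6 (chr4:154170463-154170762, plus strand, 20 CG), 4930550L24Rik (chrX:58911211-58911510, plus strand, 9 CG) and Gpr35 (chr1:92972869-92973168, plus strand, 0 CG).
Jag2: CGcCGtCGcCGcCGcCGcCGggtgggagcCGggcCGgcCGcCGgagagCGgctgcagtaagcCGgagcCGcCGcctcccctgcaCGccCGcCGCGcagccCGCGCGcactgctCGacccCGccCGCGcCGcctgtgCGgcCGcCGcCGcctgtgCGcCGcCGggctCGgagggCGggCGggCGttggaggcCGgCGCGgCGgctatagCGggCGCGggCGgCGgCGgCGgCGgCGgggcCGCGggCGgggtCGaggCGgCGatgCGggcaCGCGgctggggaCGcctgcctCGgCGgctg
Megf6: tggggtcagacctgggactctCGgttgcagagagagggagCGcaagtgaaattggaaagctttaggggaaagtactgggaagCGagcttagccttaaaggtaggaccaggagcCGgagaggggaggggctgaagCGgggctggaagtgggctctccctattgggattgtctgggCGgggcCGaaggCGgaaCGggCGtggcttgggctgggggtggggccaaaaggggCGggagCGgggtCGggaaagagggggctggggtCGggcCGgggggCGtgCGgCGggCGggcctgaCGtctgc
4930550L24Rik: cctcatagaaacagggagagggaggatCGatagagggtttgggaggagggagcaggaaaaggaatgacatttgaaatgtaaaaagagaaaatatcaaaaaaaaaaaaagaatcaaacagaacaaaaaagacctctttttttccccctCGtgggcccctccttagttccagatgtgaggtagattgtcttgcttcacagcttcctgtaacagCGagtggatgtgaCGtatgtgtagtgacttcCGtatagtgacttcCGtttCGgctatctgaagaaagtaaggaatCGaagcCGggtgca
Gpr35: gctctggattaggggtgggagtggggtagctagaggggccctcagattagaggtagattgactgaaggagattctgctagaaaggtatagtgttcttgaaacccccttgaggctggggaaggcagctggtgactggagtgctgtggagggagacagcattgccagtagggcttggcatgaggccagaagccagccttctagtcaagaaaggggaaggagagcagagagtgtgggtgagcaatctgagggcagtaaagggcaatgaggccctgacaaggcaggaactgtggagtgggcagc

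This range is that of the set's own windows. The Gpr35 window lies inside the gene, whose outermost start is at 92950865. Gpr35, with no CG in its window, had means of 0.547 CPM in wild type and 10.7 CPM in the labelled libraries, and Jag2, with the most, had 0.411 and 7.24 CPM. Over the 40 windows the observed CpG count divided by the count that base composition gives had a median of 0.468. It was 0.779 over 8808 tested coding genes with a window, and 0.437 over the 368 of them outside the set with a wild-type mean under 1 CPM. A value of 0.6 or more, a usual mark of a CpG island, was met by 18 of 40 windows (45%), by 75.0% of the tested coding genes and by 38.0% of the low ones. The coding genes of the set were therefore closer to other low genes than to tested coding genes as a whole.

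**Figure D2:**
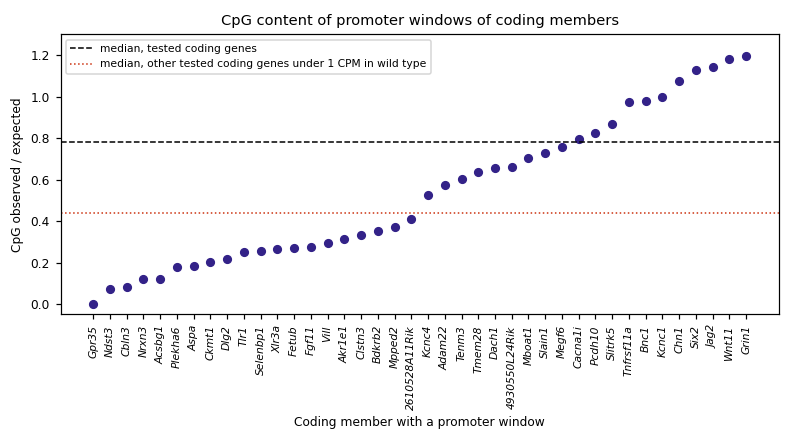
Observed over expected CpG in the promoter window of each of the 40 coding genes with a window, ordered by value. The values run from 0 for Gpr35 to above 1 for Jag2, Wnt11 and Grin1, with the dotted line at 0.437 for other low tested coding genes and the dashed line at 0.779 for all tested coding genes.

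Short motifs were searched on both strands of the windows. The letters ACGTG, part of the element bound by hypoxia-inducible factors, stood in 7 of 40 windows (17.5%), in 26.0% of tested coding genes and in 17.9% of the other low ones. TATAAA stood in 6 (15%), against 6.63% and 10.9%, and GGGCGG, a letter string of Sp1 sites, in 18 (45%), against 66.2% and 42.7%. CCAAT stood in 16 (40%), against 39.9% and 40.5%, and a strict form of the element bound by the repressor REST in 0, as in 0 of the other low genes, against 0.0227% of tested coding genes. For ACGTG and likewise for TATAAA and for the Sp1 string, the share in the set was nearer to that of the other low genes than to that of all tested coding genes.

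The 51 coding genes were sorted by role, after their values had been seen. Genes outside the set were not sorted in this way, so nothing is read from the size of a group. The largest group, with 13 genes, encodes proteins of the neuronal membrane and the synapse. Its summed level was 3.46, 4.44 and 4.32 CPM in wild type and 59.0, 58.0 and 46.0 CPM in the labelled libraries. The ratio of the means ran from 5.49 for Cacna1i to 57.4 for Kcnc4.

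Cell-surface organizers of synapses come first. Slitrk5 (chromosome 14, 111675097 to 111683141, plus strand), a leucine-rich repeat protein of postsynaptic membranes, was at 0.310, 0.949 and 0.497 CPM in wild type and at 10.6, 11.4 and 6.45 CPM in the labelled libraries. Its labelled level per kilobase of exonic length, 1.80 CPM, was the highest of the group. Nrxn3, a presynaptic neurexin, was at 0.310, 0.678 and 0.248 CPM and then at 9.23, 7.34 and 5.75 CPM. In both genes the third labelled library was the lowest of its group, and that it stood above the highest wild-type library follows from the limits. Clstn3, a calsyntenin of the postsynaptic membrane, was at 0.929, 1.08 and 0.714 CPM in wild type and at 9.91, 6.56 and 8.33 CPM in the labelled libraries. Cbln3, a cerebellin, a family of secreted proteins that bridge neurexins to postsynaptic receptors, was at 0.366, 0.169 and 0.497 CPM and at 5.02, 5.21 and 8.63 CPM. The scaffold gene Dlg2, whose product PSD-93 anchors receptors at synapses, was highest in labelled library 2, at 9.27 CPM, against 4.88 and 4.36 CPM in the other two and 0.217 to 0.644 CPM in wild type.

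Further adhesion genes and a vesicle gene had these levels. Tenm3, a teneurin, had means of 0.181 ± 0.0934 and 2.53 ± 1.17 CPM (SD, n = 3), Pcdh10, a protocadherin, 0.219 ± 0.118 and 2.40 ± 0.595 CPM, and Adam22, a receptor of the synaptic protein LGI1, 0.251 ± 0.102 and 1.47 ± 0.274 CPM. Syt7, a calcium sensor of vesicle fusion, had 0.0809 ± 0.0453 and 1.91 ± 0.382 CPM.

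Ion channel genes made up the rest of the group. Kcnc4, which encodes a fast voltage-gated potassium channel, was at 0.0563, 0 and 0.0932 CPM in wild type and at 2.85, 4.44 and 1.29 CPM in the labelled libraries. Its relative Kcnc1 was at 0.0845, 0 and 0.248 CPM and at 1.09, 1.35 and 1.49 CPM. Labelled values of Kcnc1 lay just above the minimum, whereas those of Kcnc4 differed 3.44-fold among themselves. Grin1, the obligatory subunit of NMDA receptors, was at 0.197, 0 and 0.0932 CPM and at 2.44, 1.64 and 1.29 CPM, and an antisense gene that shares 13.5% of its exonic bases had 0 counts in all libraries. Cacna1i, a low-threshold calcium channel, had the smallest ratio of the group, with means of 0.443 ± 0.343 and 2.43 ± 0.847 CPM. Outside the set, 89 ion channel genes were tested, and edgeR called 4 higher and 5 lower. For this and the gene lists that follow, the background is the 2.04% of all tested genes called higher and the 1.35% called lower.

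Neuronal markers were measured beside these genes. Of 20, 6 were tested, with a median log2 fold change of 0.72. edgeR called 1 of them higher, the vesicle gene Syt1, at 0, 0.0678 and 0 CPM in wild type and 0.678, 0.579 and 0.595 CPM in the labelled libraries (adjusted p = 0.0308). Map2, a dendritic microtubule protein, had means of 2.66 ± 0.981 and 7.92 ± 2.08 CPM (n = 3 each, edgeR adjusted p = 0.0562). Nefm and Rbfox3, which were not tested, had labelled means of 0.524 and 0.287 CPM and wild-type means of 0.0104 and 0.00939 CPM. Both rest on few counts, since 3 counts stand for 0.407, 0.290 and 0.298 CPM in labelled libraries 1 to 3. Gap43, also not tested, was lower, with means of 0.519 CPM in wild type and 0.0331 CPM in the labelled libraries. Tubb3 (5.49 and 6.09 CPM, edgeR adjusted p = 0.967) and Snap25 (0.769 and 1.08 CPM, edgeR adjusted p = 0.869) were not called. The summed level of the 20 markers was 137, 196 and 116 CPM in wild type and 193, 429 and 127 CPM in the labelled libraries, most of it from Ncam1, and Nefl, Dcx and Uchl1 had 0 counts in all labelled libraries. Of 138 other tested genes of adhesion and guidance proteins, 10 were called higher and 6 lower by edgeR. Whether cells of another type contributed to the levels of the 13 genes was not tested.

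Receptors formed a group of 7. Gpr35 (chromosome 1, 92950865 to 92986391, plus strand), a G protein-coupled receptor for which kynurenic acid is a proposed ligand, was at 0.620, 0.339 and 0.683 CPM in wild type and at 8.28, 13.7 and 10.1 CPM in the labelled libraries. Bdkrb2, the bradykinin B2 receptor, was at 0.591, 0.949 and 0.652 CPM and at 3.53, 6.56 and 3.97 CPM. Both were highest in labelled library 2. Gipr, the receptor of an incretin hormone of the gut, was at 0, 0.169 and 0.217 CPM and at 1.49, 2.70 and 3.47 CPM. Of 80 other tested G protein-coupled receptor genes, edgeR called 4 higher and 1 lower.

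Single-pass receptors of growth factor and innate immune signalling were the other 4. Erbb3 (chromosome 10, 128567523 to 128589652, minus strand), a neuregulin receptor of the EGF receptor family, was at 0.563, 0.644 and 0.683 CPM in wild type and at 10.2, 7.82 and 6.55 CPM in the labelled libraries. Its wild-type values were among the tightest of the set (0.630 ± 0.0612 CPM, SD, n = 3). Sigirr, an inhibitory member of the interleukin-1 receptor family, was at 4.07, 9.56 and 7.64 CPM in the labelled libraries against 0.474 to 0.776 CPM in wild type. Tnfrsf11a, which encodes RANK, the receptor of osteoclast differentiation, had means of 0.536 ± 0.251 and 3.25 ± 1.20 CPM. Tlr1, a receptor of bacterial lipopeptides, had the smallest ratio of all 70 genes, 5.01, and 15.4% of its 50-base words also stood in transcripts of other genes. Of 112 other tested genes of this kind of receptor, 4 were called higher and 5 lower by edgeR. Erbb3 is also a marker of glia and neural crest, and the 3 other tested markers of that list gave 0 calls by edgeR, 2 at an unadjusted p under 0.05 and 1 call by DESeq2, with a median log2 fold change of 0.65, while Sox10, Olig2, Aqp4 and Fabp7 had 0 counts in the labelled libraries.

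Ligands and related proteins numbered 6. Jag2, a ligand of Notch receptors whose window is printed, was at 0.225, 0.542 and 0.466 CPM in wild type and at 6.38, 11.8 and 3.57 CPM in the labelled libraries. Wnt11, a Wnt protein of the non-canonical branch, was at 0.197, 0.237 and 0.248 CPM and at 2.04, 1.06 and 2.28 CPM. Fgf11, a member of the fibroblast growth factor homologous factors that stay inside the cell, was at 0.591, 0.169 and 0.0621 CPM and at 1.63, 3.48 and 2.38 CPM. In each of the 3 the groups were apart, as the limits require. Within the labelled libraries the order differed, with library 2 highest for Jag2 and Fgf11 and lowest for Wnt11. Of 92 other tested genes of secreted ligands and cytokines, edgeR called 4 higher and 6 lower.

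The secreted proteins 2610528A11Rik and Megf6 were nearly absent in wild type. 2610528A11Rik (chromosome 14, 37102140 to 37114022, minus strand), which encodes a peptide ligand of the receptor GPR15, had 1, 1 and 2 counts in wild type and 28, 38 and 85 counts in the labelled libraries. The pooled counts per total differed 132-fold (exact 95% interval 50.5 to 491). Per kilobase of exonic length it had the highest labelled level of the coding genes, 6.40 CPM per kilobase. Megf6, a protein of repeated EGF-like domains whose window is also printed, had 0, 1 and 1 counts in wild type and 19, 35 and 24 in the labelled libraries. Its pooled ratio was 136 (exact 95% interval 36.5 to 1146). Fetub, the liver protein fetuin-B, was uneven in wild type, at 0.422, 1.02 and 0.248 CPM, and was at 2.99, 2.99 and 5.95 CPM in the labelled libraries.

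Of the 6 transcription and chromatin factors, 5 were highest in labelled library 1. The exception was Bnc1 (chromosome 7, 81966672 to 81992292, minus strand), which encodes basonuclin, a zinc finger protein known from keratinocytes and germ cells. It was at 1.15, 0.610 and 1.02 CPM in wild type and at 9.91, 20.1 and 14.0 CPM in the labelled libraries. Its labelled level was 3.15 CPM per kilobase, the highest of this group. Six2, a homeodomain factor of kidney progenitors, was at 0.0845, 0.271 and 0.155 CPM and at 7.19, 1.83 and 2.68 CPM. Dach1, a corepressor of the retinal determination network, was at 0.253, 0.474 and 0.404 CPM and at 8.68, 1.64 and 7.54 CPM. Its highest labelled library was 5.29 times the lowest, the widest spread in the set.

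Pknox2, a homeodomain factor that pairs with Hox and Pbx proteins, was at 3.53, 3.48 and 2.08 CPM in the labelled libraries against a wild-type mean of 0.452 ± 0.172 CPM. Chd7, a chromatin remodeller, was at 6.38, 3.77 and 2.08 CPM against 0.381 ± 0.127 CPM. Outside the set 253 homeodomain and other developmental transcription factor genes were tested, and edgeR called 27 higher and 4 lower, with a median log2 fold change of 0.13. That list holds the Hox genes and other names set aside from the set.

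Enzymes numbered 10, and the median of their ratios was 9.85, lower than in each other role group except the cytoskeletal one, at 8.66. Ckmt1 (chromosome 2, 121357714 to 121363737, plus strand), the mitochondrial creatine kinase, was at 0.310, 0.813 and 0.217 CPM in wild type and at 6.92, 6.56 and 12.4 CPM in the labelled libraries. Akr1e1, an aldo-keto reductase, was at 1.04, 0.881 and 0.683 CPM and at 3.66, 8.98 and 10.5 CPM. Acsbg1, an acyl-CoA synthetase of very long chain fatty acids, was at 0.563, 0.237 and 0.652 CPM and at 6.11, 3.57 and 5.46 CPM. Their labelled libraries had no common order, with library 3 highest for the first 2 genes and library 1 for Acsbg1.

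Other lipid and glycan enzymes are given by their means. Mboat1, a lysophospholipid acyltransferase, had means of 0.472 ± 0.194 and 4.38 ± 0.997 CPM (SD, n = 3). Ndst3, an enzyme of heparan sulfate modification, had 0.404 ± 0.216 and 2.58 ± 0.925 CPM, and Gcnt3, a glycosyltransferase of mucin O-glycans, 0.239 ± 0.149 and 2.13 ± 0.901 CPM. Selenbp1 was at 0.113, 0 and 0.280 CPM and at 2.04, 4.25 and 2.68 CPM, but 46.3% of its 50-base words are shared with other genes' transcripts, the largest share of any coding gene in the set. Ces1f, a carboxylesterase, Aspa, which cleaves N-acetylaspartate, and Mpped2, a metallophosphoesterase, had labelled means of 1.72 ± 0.295, 1.64 ± 0.753 and 1.66 ± 0.707 CPM. Of 84 other tested genes of cytochromes P450 and related enzyme families, edgeR called 2 higher and 3 lower.

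The 6 genes of the cytoskeleton, of trafficking and of GTPase control had labelled means from 1.22 CPM for Vill, a villin-like actin-binding protein, to 3.95 CPM for Snx20, a sorting nexin of leukocytes. Slain1, a protein of growing microtubule ends, had the largest ratio, 53.3, from 0.0282, 0.0339 and 0.0621 CPM in wild type to 2.99, 1.45 and 2.18 CPM. Arhgap9, which inactivates small GTPases, was at 1.63, 2.90 and 2.68 CPM in the labelled libraries against 0.225 to 0.590 CPM in wild type. Its exons overlap those of Gli1 on the opposite strand by 62 bases, and Gli1, which was not called, had means of 2.22 ± 0.776 CPM in wild type and 0.541 ± 0.154 CPM in the labelled libraries (n = 3 each, edgeR adjusted p = 0.0562). Chn1, an activator of Rac GTP hydrolysis in neurons, and Plekha6, a pleckstrin homology protein of cell junctions, had labelled means of 1.53 ± 0.237 and 2.75 ± 0.581 CPM. Of 295 other tested regulators of small GTPases and G proteins, 4 were called higher and 8 lower by edgeR.

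Some of the gene lists held none of the 70, which make up 0.553% of the tested genes, so that few were to be found in any list. Of 295 tested solute carriers and transport ATPases, 0 were in the set, and edgeR called 3 higher and 9 lower. Of 382 tested genes of the zinc finger list, which is compiled by name and does not hold Bnc1, 0 were in the set and 1 was called in each direction. Of 159 tested matrix proteins and matrix proteases, 0 were in the set, and 8 were called higher and 16 lower.

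Of the genes on the X chromosome, 3 are described here. 4930550L24Rik (chromosome X, 58909360 to 58920304, plus strand), a coding gene with a predicted-type name, had 1, 0 and 0 counts in wild type and 66, 22 and 69 counts in the labelled libraries. Its pooled counts per total differed 549-fold (exact 95% interval 97.1 to 21815), the largest ratio in the set, and the interval shows how little 1 count fixes it. Xlr3a, of the X-linked lymphocyte-regulated family, was at 0.113, 0.203 and 0.124 CPM in wild type and at 4.61, 1.64 and 6.15 CPM in the labelled libraries, and 44.8% of its 50-base words stand in transcripts of other genes. Tmem28 was at 3.66, 1.45 and 1.59 CPM in the labelled libraries against 0.0932 to 0.113 CPM in wild type. All 3 were lowest in labelled library 2.

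Xlr3a was the single member among 36 germline and preimplantation genes, of which 3 were tested. Another of them, Rhox5, an X-linked homeobox gene of the reproductive tract, was not near silence, at 38.8 ± 11.7 CPM in wild type and 199 ± 92.9 CPM in the labelled libraries (n = 3 each; edgeR gave a log2 difference of 2.36 and an adjusted p of 0.0103). Dazl, Mael and Pou5f1, defining genes of germ and pluripotent cells, had 0 counts in all 6 libraries.

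Few of the 70 lay next to each other. AI662270 and Gm11427 on chromosome 11 overlap on the same strand and share 491 exonic bases, 16.2% and 16.6% of their exonic lengths, so that reads there may count for either gene. AI662270 was at 6.92, 3.86 and 5.95 CPM in the labelled libraries and Gm11427 at 3.26, 1.93 and 2.08 CPM.

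The genes next to the 70 were examined as well. The nearest tested gene on each side gave 134 different genes, at a median gap of 90.2 kb. Of these, 73 had a positive log2 fold change (54.5%, against 48.7% of all tested genes), with a median of 0.03 against -0.01. edgeR called 2 of them higher and 1 lower, 15 had an unadjusted p under 0.05 (11.2%), and DESeq2 called 6 (4.48%). Over all tested genes these shares were 11.4% and 5.68%, and 3.39% were called by edgeR, so the neighbours as a group stood near the background. The RNA-binding protein gene Rbmx, 1516 kb from 4930550L24Rik on the X chromosome, went from 34.3 ± 10.0 to 170 ± 68.9 CPM (edgeR log2 difference 2.33 with SE 0.36, adjusted p = 0.00759). The neural factor Pou4f1, 757 kb from Slain1, had an edgeR log2 difference of 4.57 (adjusted p = 0.00034). It is one of the names left out, but its wild-type mean of 1.18 CPM was above the limit, so it did not meet the limits either. Eml2, a microtubule-associated protein gene 10.3 kb from Gipr, went the other way, from 11.6 to 4.43 CPM (edgeR log2 difference -1.38, adjusted p = 0.0308).

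The 15 processed pseudogenes included the members with the highest level per length. The first 9 of the 70 by labelled CPM per kilobase were pseudogenes, led by Gm9836 with 45.9 and Gm10705 with 33.1 CPM per kilobase, while Gm10254, with 1.35, was the lowest of the 15 and stood behind several coding genes. Each matched a coding parent gene over 95.8% to 100% of aligned bases, and the parents are genes of RNA processing, ubiquitin and SUMO conjugation and other functions of every cell. Stretches of 120 bases are printed 5′ to 3′, with the bases that differ in capitals. They come from the transcripts of the GENCODE M21 annotation on GRCm38. Each was chosen as the gap-free stretch of the parent's coding sequence with the most differences, so it shows copy and parent where they are least alike. Over the whole alignment Hnrnpa1l2-ps had 36 mismatches in 966 aligned bases and Gm10705 had 3 in 459. The copy Hnrnpa1l2-ps (chromosome 13, 74864305 to 74865356, plus strand) differs from Hnrnpa1, an RNA-binding protein of splicing, at 12 positions of the stretch. Gm10705 (chromosome 3, 87207545 to 87208005, minus strand) differs from Ube2l3, a ubiquitin-conjugating enzyme, at 2.
Hnrnpa1l2-ps: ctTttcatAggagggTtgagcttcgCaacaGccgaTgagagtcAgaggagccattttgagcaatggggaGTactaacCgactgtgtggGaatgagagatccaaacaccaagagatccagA
Hnrnpa1: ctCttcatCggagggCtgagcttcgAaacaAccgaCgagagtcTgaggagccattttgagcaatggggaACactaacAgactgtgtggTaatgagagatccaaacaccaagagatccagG
Gm10705: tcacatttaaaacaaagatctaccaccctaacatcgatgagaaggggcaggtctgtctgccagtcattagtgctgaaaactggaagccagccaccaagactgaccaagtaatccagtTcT
Ube2l3: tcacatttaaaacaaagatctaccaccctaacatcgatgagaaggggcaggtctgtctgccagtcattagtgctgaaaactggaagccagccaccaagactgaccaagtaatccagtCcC

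Shared letters were counted over whole transcripts. In the pseudogenes of the set a median of 76.0% of the 50-base words also stood in a transcript of another gene, from 20.4% to 100%, and 11 of 15 shared at least 50%. In the coding genes the median was 0, and 35 of 51 shared none. The 293 tested processed pseudogenes outside the set had a median of 77.7%, so the set's copies were not set apart by it. The sources used here do not state how reads that fit several places were counted.

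Hnrnpa1l2-ps, the more diverged of the printed copies, was at 0.394, 0.474 and 0.435 CPM in wild type and at 18.2, 5.79 and 9.03 CPM in the labelled libraries. It stood at 0.0352% of the level of Hnrnpa1 in wild type and at 0.598% in the labelled libraries. Gm10705 was at 0.986, 0.949 and 0.745 CPM and at 18.5, 10.2 and 17.1 CPM, or 2.11% and 47.1% of Ube2l3. A second copy of the same parent, Gm10145, was at 0.563, 0.508 and 0.590 CPM and at 8.01, 2.99 and 12.7 CPM, or 1.31% and 24.4% of Ube2l3. These shares are of counts and not per length. For each copy all 3 labelled shares were above all 3 wild-type shares, as the choice of the genes leads to.

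Ube2l3 itself was at 44.6, 37.5 and 45.0 CPM in wild type and at 32.4, 20.9 and 43.8 CPM in the labelled libraries. The means were 42.4 ± 4.24 and 32.4 ± 11.4 CPM (n = 3 each; edgeR log2 difference -0.38, adjusted p = 0.715). The sum of the parent and both copies was 46.2, 38.9 and 46.3 CPM in wild type and 58.9, 34.2 and 73.6 CPM in the labelled libraries. These ranges overlap. Whether reads of the parent were counted at the copies was not tested.

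Other copies followed the same pattern at other scales. Gm12372, a copy of the nuclear adenylate kinase gene Ak6, was at 0.0563, 0.169 and 0.0311 CPM in wild type and at 5.29, 3.28 and 1.79 CPM in the labelled libraries, from 1.28% to 53.6% of its parent. Gm6361, identical to the coding transcript of the ubiquitin-conjugating enzyme variant Ube2v2 over the aligned bases, went from 1.05% to 25.7%, and Gm9836, a copy of Sumo2, from 0.525% to 7.59%. Gm12183, a copy of the RNA helicase gene Ddx5, was at 0.648, 0.712 and 0.994 CPM and at 14.9, 5.02 and 16.3 CPM, from 0.122% to 1.69%. The remaining 8 are Gm12844, Gm8991, Gm15429, Gm7308, RP23-395H12.1, Gm5446, Gm5633 and Gm10254, with parents Rhoa, Hnrnpa3, Aph1a, Calm2, Hnrnpr, Srsf10, Mrto4 and Tra2b, and their ratios of means lie between 5.39 for Gm10254 and 24.6 for Gm7308. Over the 15 copies the median share of the parent's level was 0.202% in wild type and 2.08% in the labelled libraries.

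**Figure D3:**
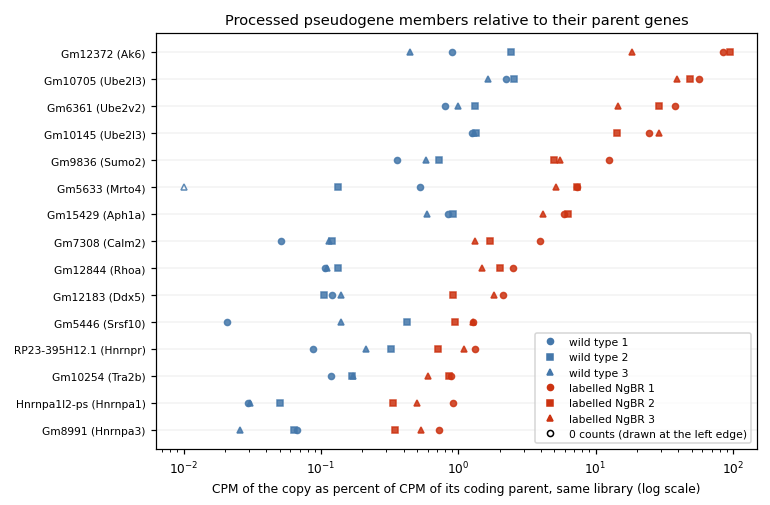
CPM of each of the 15 processed pseudogenes as a percentage of the CPM of its coding parent in the same library, on a log scale, with 1 point per library and the parent in brackets. For every copy the 3 labelled points lie to the right of the 3 wild-type points, as the choice of the genes leads to, and the medians over the copies are 0.202% in wild type and 2.08% in the labelled libraries.

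The parents were tested on their own counts. Of the 14 parents edgeR called 0, with 1 at an unadjusted p under 0.05, and DESeq2 called 1. Their log2 fold changes ran from -0.40 for Mrto4, a ribosome assembly factor, to 1.04 for Hnrnpr, another RNA-binding protein, with a median of 0.18, and 10 of 14 were positive. Hnrnpr was at 141 ± 9.77 CPM in wild type and 286 ± 73.1 CPM in the labelled libraries (n = 3 each, edgeR adjusted p = 0.0676).

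Processed pseudogenes outside the set were called in 1 direction as well. Of all 308 tested, edgeR called 27 higher and 0 lower, with 40 and 1 at an unadjusted p under 0.05, and DESeq2 called 34 higher and 0 lower. Of the 293 outside the set, edgeR called 13 higher (4.44%) and 0 lower, with 25 and 1 at an unadjusted p under 0.05. Of 11570 coding genes outside the set, it called 169 higher (1.46%) and 167 lower (1.44%). The 13 fell to 8 when labelled library 1 or 3 was left out. The order of the shares depended on the filter, since with no filter on low counts edgeR called 20 of 1718 pseudogenes (1.16%) and 280 of 16011 coding genes (1.75%) higher outside the set. The calls did not extend to the class as a whole, in which the median log2 fold change was -0.02 over the 293 and -0.01 over the 11570.

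Libraries with the same label differed in how they held the 2 classes. Of the 15 pseudogenes, 13 were highest in labelled library 1, 2 in library 3 and 0 in library 2, and 12 were lowest in library 2. The 51 coding genes were spread evenly, with 20, 16 and 15 highest and 17, 18 and 16 lowest in labelled libraries 1 to 3. The pseudogenes are short, with a median exonic length of 768 bases against 4646 in the coding genes. Coding members matched the 11621 tested coding genes in size, with a median of 4609 exonic bases in the latter.

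Labelled library 2 was lower for short transcripts in general. Its level relative to the mean of labelled libraries 1 and 3 had a median log2 value of -1.18 over the pseudogenes and -0.10 over the coding genes of the set. Across the 69 genes with a length, that value rose with exonic length (Spearman's correlation 0.467, across genes, which are not independent replicates and share the 3 libraries). Across 11665 genes at 1 CPM or more in the labelled libraries the correlation was 0.466, and within the 51 coding genes of the set it was 0.214. The part of RNA quality or library preparation in this was not tested. Wild-type library 2 was not examined by length, so the relation is not shown to be particular to labelled library 2. Deviations from the group mean correlated at 0.383 across genes between wild-type library 2 and labelled library 2.

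**Figure D4:**
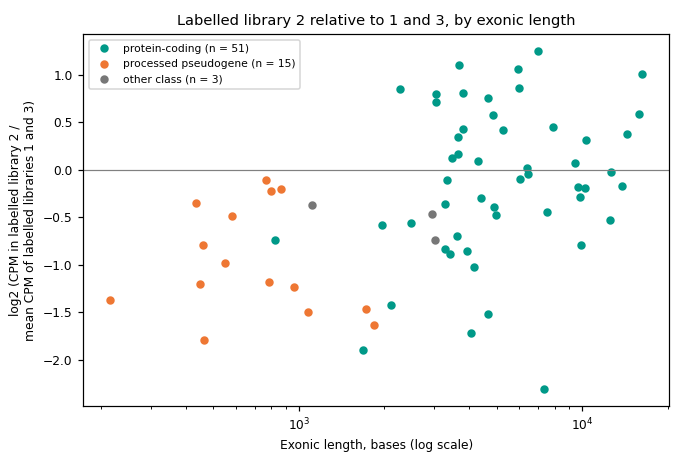
Log2 of the CPM in labelled library 2 over the mean CPM of labelled libraries 1 and 3 for each gene, against exonic length in bases on a log scale, for 51 protein-coding genes, 15 processed pseudogenes and 3 genes of other classes. All pseudogenes lie below 0, with a median of -1.18, and the coding genes lie on both sides, with a median of -0.10.

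Markers of other cell types moved with the groups to different degrees, and their part in the levels of the 70 genes was not tested. Of 18 epithelial and trophoblast markers, 4 were tested and 1 was called higher by edgeR. Their sum was 3.24, 2.10 and 3.60 CPM in wild type and 19.4, 11.9 and 24.4 CPM in the labelled libraries. The connexin gene Gjb5 gave more than any other in the labelled libraries, and it was the marker called. Gjb5 is one of the genes that met the limits and were set aside by name, so the limits themselves require its rise. Epcam, Krt8 and Krt18 had 0 counts in the labelled libraries. Of 16 muscle markers, 5 were tested and edgeR called 1 higher, the troponin gene Tnni1. The 16 summed to 4.44 to 5.68 CPM in wild type and 12.1 to 20.9 CPM in the labelled libraries. Another muscle marker, which was not called, gave more to the labelled sums than Tnni1. Myod1, Myog and Myf5 had 0 counts in all libraries. The 14 leukocyte markers summed to between 2.68 and 6.58 CPM in wild type and between 3.26 and 5.36 CPM in the labelled libraries, and the 14 endothelial markers to between 3.15 and 4.31 and between 3.48 and 4.46 CPM. For these 2 lists the ranges overlap, although leukocyte genes such as Snx20, Arhgap9 and Tlr1 are among the 70.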

How the data were processed

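RNA from 6 libraries was measured. The authors deposited a table of raw read counts by gene, and per the submitters' processing notes the authors used HISAT2 2.0.5, featureCounts 1.5.0-p3 and the build mm10. For the strand setting, the annotation release and reads that fit several places, the choice is not given in the sources consulted. Thus reads of overlapping genes, antisense genes and near-identical copies can have been counted at either gene. Libraries were prepared from 1.5 micrograms of total RNA with a SMARTer kit and carried no stated molecular identifiers, and intervals cover counting error only. Where nothing says that replicates were separate cultures, a p-value reflects the spread among these libraries alone, and that spread may be technical.

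CPM was computed as the count over the column sum. Groups were taken from the genotype label. Differential expression was tested with edgeR 4.0.16 (quasi-likelihood F test, TMM factors, filterByExpr, no covariate) in R 4.3.3, with Benjamini-Hochberg adjustment over 12651 genes, and called at 0.05. Positions, classes and exonic lengths came from GENCODE M21 on GRCm38, in which 97.8% of the identifiers were found. Parents were found with BLAST 2.17.0 against coding transcripts, at an E-value of at most 1e-10, and shared words were 50 bases long on the same strand. Promoter windows of 300 bases came from RefSeq (GRCm38.p6). The script for the fit was tested on simulated data.

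The genes and gene lists were chosen with earlier results of these data known. Genes named by rule were the 12 with the highest labelled mean and the 12 with the highest ratio among those without a predicted-type name, all in a gene list, those nearest each limit, those within 500 kb of another, and Nus1. Others were chosen after their values were seen. Alternatives were DESeq2 1.42.0, limma-voom (limma 3.58.1), other scaling factors and filters, thinning to the shallowest depth, a replicate block, other limits and each library left out. Leaving out both libraries numbered 2 was added after the data were seen. For 1 gene of the set and 1 marker gene, values are not reported here.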

Additional observations from a re-analysis of the deposited data

How the results depend on the processing

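The 429 genes called by edgeR became 719 with DESeq2, 688 with no filter on low counts, and between 225 and 374 with 1 library left out. The lowest count came without labelled library 1, and wild-type library 1 and labelled library 3 gave 250 and 274 when left out. Without both libraries numbered 2 the count was 581, so fewer samples did not always give fewer calls, and the cause was not tested. The replicate block gave 719 calls, and no text label ties same-numbered libraries. Same-numbered libraries had correlated deviations of 0.0365, 0.383 and 0.50, and differently numbered libraries had values between -0.458 and 0.229. The values for numbers 2 and 3 were thus above all of the latter, and the value for number 1 was not. Whether replicate numbers pair the libraries is not known. With the block, coding genes called outside the set went from 169 to 318 higher and from 167 to 295 lower, and pseudogenes outside the set from 13 to 18. DESeq2 gave 343 and 266 such coding genes, and no filter gave 280 and 293. With 1 library left out they were 77 to 128 higher and 81 to 161 lower. The set of 70 genes shrank to 39 with a limit of 8 times and to 40 with a minimum of 2 CPM in each labelled library. It held 72 genes after thinning, 59 of them of the 70, and between 68 and 95 with 1 library left out. Processed pseudogenes called higher numbered 27, between 19 and 31 with 1 library left out and between 23 and 35 under the other settings, of which the fit without a filter also called 1 lower. Of 829 alternative log2 fold changes of the 70 genes, 0 reversed and 18 moved by more than 1 SD, 9 of these after thinning. For a gene to be chosen, each labelled library had to lie well above the wild-type mean. A reversal was thus hardly possible, and nothing is read from its absence. edgeR called 44 of the 70 genes in each of the 6 fits with 1 library left out. The same contrast chose these genes, so nothing is read from that count, and it was not taken over all tested genes. The few wild-type counts limit every ratio, and the lower depth of the labelled libraries ran with the group and cannot be told apart from it.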
